A study of Homo sapiens with 12 samples.

Results

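The comparison described here was the difference between 2 bortezomib responses in T47D cells, an established human luminal breast cancer line. For every gene, the log2 change on bortezomib in control cells was subtracted from the log2 change on bortezomib in cells of the Lo19S state, so that each response was measured from its own starting level under DMSO. All 12 libraries of the series entered the comparison, and 14714 genes were tested. A negative difference means that the gene ended relatively lower in Lo19S cells than its starting level and the control response would give, and a positive difference means the opposite.

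All 4 groups of 3 libraries carried a doxycycline-inducible short hairpin RNA against PSMD2. In the control groups the hairpin was uninduced. In the Lo19S groups it had been induced with 0.2 ug/ml doxycycline for 3 days, and the cells were then split into medium without doxycycline. After a further 24 hours the cells received DMSO or 20 nM bortezomib, and RNA was collected 16 hours later. Doxycycline went with the Lo19S groups, so any effect of the agent itself cannot be told apart from that of the hairpin. Whether replicates were grown as separate cultures is not in the labels, and if they were not, the p-values measure technical spread only.

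The proteasome breaks down ubiquitin-tagged proteins. Its 20S core holds the peptidase sites that bortezomib blocks, and its 19S cap, of which PSMD2 is a subunit, recognises and unfolds the substrates. In most cells, proteasome inhibition is known to switch on several programmes of transcription. NRF1 (gene NFE2L1) raises proteasome subunit genes through antioxidant response elements, HSF1 raises heat shock proteins through heat shock elements, ATF4 raises amino acid and tRNA synthetase genes through C/EBP-ATF elements, and NRF2 raises antioxidant genes. A reduced level of a 19S subunit, the Lo19S state, is known to accompany tolerance of cancer cells to proteasome inhibitors.

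The promoters of 5 of the genes named below are shown because they carry DNA elements of these programmes. They are the RefSeq sequences of GRCh38.p14, from 250 bases before to 10 bases after the annotated start, printed in the direction of the gene, whereas the counts were made on GRCh37. Capitals mark the elements found. GPX2 (chr14:64942736-64942995, minus strand) and C1orf116 (chr1:207032747-207033006, minus strand) are among the genes with the largest negative differences. HSPA6 (chr1:161524290-161524549, plus strand), PSMD3 (chr17:39980557-39980816, plus strand) and AARS1 (chr16:70289497-70289756, minus strand) were chosen after their values were seen, as examples of a heat shock, a proteasome and a tRNA synthetase gene.
GPX2: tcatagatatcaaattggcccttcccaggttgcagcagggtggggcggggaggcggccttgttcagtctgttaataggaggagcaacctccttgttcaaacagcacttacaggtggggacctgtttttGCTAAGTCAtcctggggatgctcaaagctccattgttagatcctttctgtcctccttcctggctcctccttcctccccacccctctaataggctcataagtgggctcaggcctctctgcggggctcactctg
C1orf116: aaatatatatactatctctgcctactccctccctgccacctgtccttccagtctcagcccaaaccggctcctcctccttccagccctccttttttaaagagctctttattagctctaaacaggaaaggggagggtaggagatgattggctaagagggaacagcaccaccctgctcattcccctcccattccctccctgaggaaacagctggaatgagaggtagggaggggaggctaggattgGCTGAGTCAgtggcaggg
HSPA6: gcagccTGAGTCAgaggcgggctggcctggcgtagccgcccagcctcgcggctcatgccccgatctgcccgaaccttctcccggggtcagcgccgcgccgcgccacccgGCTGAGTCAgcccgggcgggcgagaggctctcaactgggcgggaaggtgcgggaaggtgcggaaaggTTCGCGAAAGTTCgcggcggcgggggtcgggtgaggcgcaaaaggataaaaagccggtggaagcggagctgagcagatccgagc
PSMD3: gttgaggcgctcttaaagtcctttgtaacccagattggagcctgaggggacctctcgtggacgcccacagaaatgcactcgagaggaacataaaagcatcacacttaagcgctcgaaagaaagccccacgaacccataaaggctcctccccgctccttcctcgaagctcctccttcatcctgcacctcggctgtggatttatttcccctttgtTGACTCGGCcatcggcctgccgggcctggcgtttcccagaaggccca
AARS1: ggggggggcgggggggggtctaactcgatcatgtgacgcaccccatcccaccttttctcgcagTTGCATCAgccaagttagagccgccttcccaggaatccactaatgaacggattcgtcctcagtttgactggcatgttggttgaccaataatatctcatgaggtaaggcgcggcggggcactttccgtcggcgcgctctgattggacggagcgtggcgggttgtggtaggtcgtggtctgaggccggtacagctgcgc

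In GPX2 the capitals are an antioxidant response element (searched as TGACNNNGC), at -122 to -114 from the start. In C1orf116 an antioxidant response element at -8 to 1 and an AP-1 element (TGANTCA) at -6 to 1 overlap. In HSPA6 they are an AP-1 element at -244 to -238, an antioxidant response element at -141 to -133 that overlaps an AP-1 element at -139 to -133, and a heat shock element at -74 to -62. In PSMD3 the antioxidant response element lies at -37 to -29. In AARS1 a C/EBP-ATF element (TGATGNAA, here on the opposite strand) lies at -187 to -180. A match describes these letters and was not tested as a binding site. The promoters of many other genes named below also held a motif, among them IL7R and NAP1L2. The 5 shown do not stand for the rest. Over the same span ADRM1 held an antioxidant response element and TARS1 a C/EBP-ATF element beside an antioxidant response element. BAG3 and DDIT3 held only an AP-1 element, PPP1R15A only antioxidant response elements and IL7R only a C/EBP-ATF element.

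The libraries held 7376597 to 15003480 counts each. Control DMSO replicate 3 stood apart from the other 2 libraries of its group. In a chi-square test of the counts over genes, divided by its degrees of freedom, this library gave 3.64 and 3.99 against the others, while all other pairs of replicates gave 1.15 to 1.9. Luminal markers were present in every library, with a sum over 8 genes of 6280 to 6380 CPM (counts scaled to the size of the library) in control and 5490 to 5570 CPM in Lo19S cells under DMSO, and of 2880 to 2970 CPM and 2850 to 2990 CPM under bortezomib. Leukocyte markers summed to at most 3.07 CPM and endothelial markers to at most 0.378 CPM. In bulk RNA, fewer cells that express a gene and less of its RNA per cell cannot be told apart.

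PSMD2, the gene targeted by the hairpin, went from 408, 392 and 417 CPM under DMSO to 1509, 1510 and 1528 CPM under bortezomib in control cells and from 183, 189 and 184 CPM to 541, 546 and 539.6 CPM in Lo19S cells. Every Lo19S library lay below every control library under the same treatment. On the log2 scale PSMD2 was at -1.13 relative to control under DMSO and at -1.48 under bortezomib, which corresponds to 2.19-fold and 2.8-fold lower levels. Bortezomib raised it in both states, by 1.9 in control and 1.55 in Lo19S cells, and the difference of the responses was -0.35 ± 0.047 (SE; adjusted p = 7.1e-08).

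Bortezomib changed most of the transcriptome in both states, and the log2 changes were on the whole smaller in Lo19S cells. In control cells, 11976 genes (81.4% of those tested) were called at an adjusted p below 0.05, 39.2% of all genes as higher and 42.2% as lower. In Lo19S cells 11408 genes (77.5%) were called, 37.8% higher and 39.7% lower. The difference between the responses was called for 4094 genes (27.8%), of which 2126 (14.4% of all tested) were higher and 1968 (13.4%) lower. Over all genes tested its median was 0.01 with a median SE of 0.129. With a difference of at least 2-fold, 409 genes were left (2.78%), 182 higher (1.24%) and 227 lower (1.54%). The split between higher and lower depends on the scaling: 51.9% of the called genes were higher with TMM factors and 72.6% with library totals alone, for which the median over all genes was 0.1035. The TMM factors were 1.115 to 1.132 in the DMSO libraries, 0.855 to 0.858 in control and 0.922 to 0.928 in Lo19S cells under bortezomib.

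Across the 12541 genes whose average response over both states was called, a line through the origin (total least squares) gave a slope of 0.83 for the Lo19S on the control log2 response. The correlation across genes was 0.941. The 2 responses share no library, but genes are not independent replicates and no p-value is attached to either value. Leaving out 1 library at a time moved the slope between 0.81 and 0.85.

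**Figure D1:**
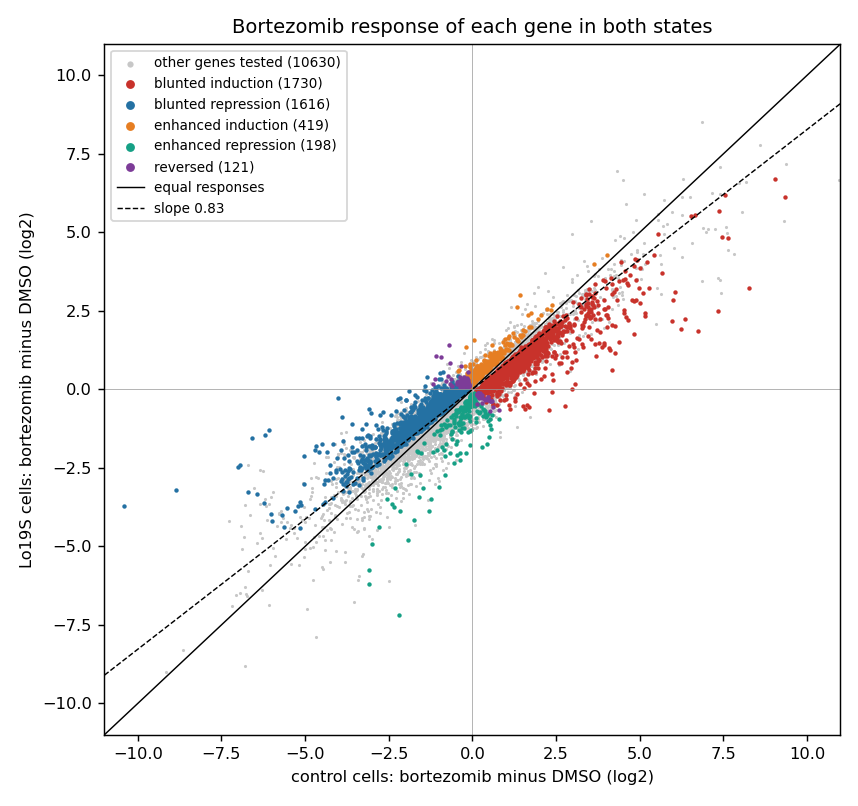
Bortezomib response of each tested gene in control cells (x axis, log2) and Lo19S cells (y axis, log2), with 1 point per gene coloured by class. The points lie along a line of slope 0.83 (dashed), flatter than the line of equal responses (solid).

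Median responses were smaller in Lo19S cells at every size of response examined. The 12541 genes with a called average response were binned by the average of the 2 responses, so that neither state alone set the bin. In the 102 genes with an average above 4, the median response was 5.68 in control and 4.43 in Lo19S cells, and 32.4% were called lower against 0.98% higher. Between 2 and 3, 49.6% of 268 genes were called lower and 2.99% higher. For genes that fell by 1 to 2 on average, the medians were -1.51 and -1.28, and 26.4% of 1941 genes were called higher against 1.39% lower. Among the 4281 genes with an average rise of up to 1, the medians were 0.53 and 0.45, and 21.2% were called lower.

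**Figure D2:**
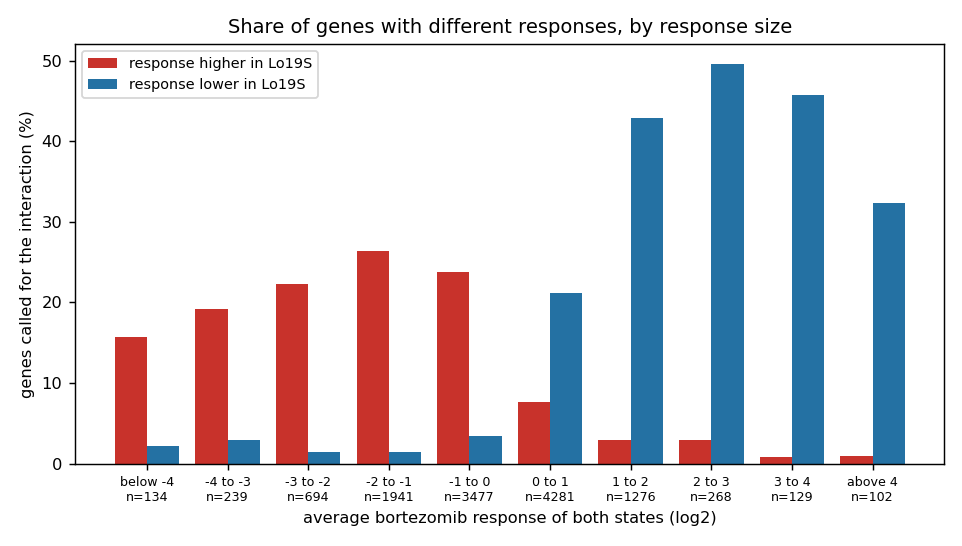
Share of genes (%, y axis) called higher (red) or lower (blue) for the difference of responses, in 10 bins of the average bortezomib response of both states (log2, x axis). Calls were mostly higher in the 5 bins of genes that fell and mostly lower in the 5 bins of genes that rose.

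The called genes fell into 5 classes, by the state with the larger response and by its direction. Blunted induction was a rise in control cells that was smaller, absent or turned to a fall in Lo19S cells. It held 1730 genes (42.3% of those called), with median responses of 1.12 in control and 0.69 in Lo19S cells. Blunted repression, the same for a fall in control cells, held 1616 genes (39.5%), with medians of -1.16 and -0.65. Enhanced induction held 419 genes (10.2%; 0.18 and 0.52) and enhanced repression 198 genes (4.84%; -0.21 and -0.81). In 103, 157, 118 and 49 genes of these classes, in this order, the fitted responses had opposite signs without both being called. The class called reversed, with called responses of opposite sign, held 121 genes (2.96%), of which 87 fell in control and rose in Lo19S cells and 34 did the opposite. In another 10 called genes neither response was called. With library totals alone, blunted induction held 963 genes and blunted repression 2810, so the balance between these classes rests on the scaling. Without control DMSO replicate 3, enhanced induction held 639, enhanced repression 333 and reversed 220 genes.

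The difference of responses is by arithmetic also the gap between the states under bortezomib minus the gap under DMSO, so each class was divided by where the genes started and where they ended. Under DMSO, 24.7% of all tested genes were called between the states (11.7% higher and 13% lower in Lo19S), and under bortezomib 43.1% (22% higher and 21.2% lower). In blunted induction, 998 of 1730 genes (57.7%) started without a called gap and ended lower in Lo19S cells. A further 274 (15.8%) started higher and ended without a called gap, 139 started higher and ended lower, and 117 (6.76%) were higher at both ends. In blunted repression, 900 of 1616 genes (55.7%) started without a called gap and ended higher in Lo19S cells, 262 (16.2%) started lower and ended without one, and 199 crossed from lower to higher. In enhanced induction, 251 of 419 genes (59.9%) started without a called gap and ended higher. In enhanced repression 120 of 198 (60.6%) started without one and ended lower. A gap that is not called is not shown to be 0.

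**Figure D3:**
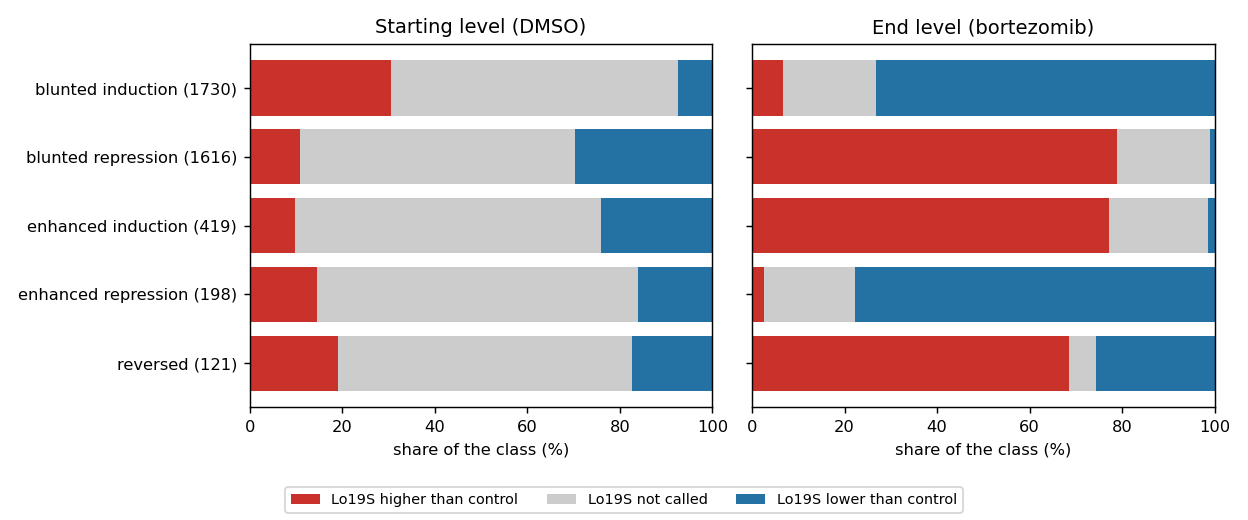
Share of each class (%) whose Lo19S level was called higher than control, called lower or not called under DMSO (left) and under bortezomib (right). In blunted induction 530 of 1730 genes were higher in Lo19S cells under DMSO and 1267 were lower under bortezomib.

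The change in CPM was compared as well. In 1670 of the 1730 genes of blunted induction it was also smaller in Lo19S cells, and in 60 it was larger. For genes that started no higher, or ended lower, in Lo19S cells, a smaller increment follows by arithmetic and is no separate evidence. Only genes that started higher and did not end lower could go either way. Of the 274 that ended without a called gap, the change was smaller in 263 and larger in 11. Of the 117 that were higher at both ends, it was smaller in 68. In the other 49 it was larger. NAP1L2, a nucleosome assembly protein of the NAP1 family, was one of them: it went from 0.302, 0.372 and 0.186 CPM under DMSO to 6.6, 6.46 and 5.84 CPM under bortezomib in control cells and from 6.53, 6.02 and 5.34 CPM to 18.2, 13 and 18.9 CPM in Lo19S cells. Its Lo19S libraries under DMSO overlapped the control libraries under bortezomib, the log2 difference was -2.89 ± 0.39 (SE; adjusted p = 8.1e-08), and the mean increment was 10.7 CPM in Lo19S against 6.01 CPM in control cells.

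The counts of list members that follow stand beside the shares over all genes tested, 14.4% called higher and 13.4% called lower. The proteasome genes had a higher start with a nearly equal end. Of the 13 genes of the 20S core that were tested, 12 were called lower for the difference and none higher, with a median of -0.51. Of 19 genes listed with the 19S cap other than PSMD2, 16 were called lower and none higher, with a median of -0.51. All 13 core genes and 17 of 19 cap genes rose in both states, with median responses of 1.18 in control and 0.67 in Lo19S cells for the core and 1.24 and 0.75 for the cap. Under DMSO all 13 core genes and 17 of 19 cap genes were higher in Lo19S than in control cells. Under bortezomib 7 core genes were higher and none lower, and 6 cap genes were higher and 2 lower. The median gap narrowed from 0.62 to 0.16 for the core and from 0.61 to 0.08 for the cap.

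PSMB4, a beta subunit of the 20S core, went from 419.9, 403 and 469 CPM under DMSO to 983, 964 and 970.1 CPM under bortezomib in control cells and from 724, 730.5 and 720.3 CPM to 1020, 956 and 911 CPM in Lo19S cells. The states were apart in all libraries under DMSO and overlapped under bortezomib, and the difference was -0.77 ± 0.058 (SE; adjusted p = 8.6e-13). ADRM1, the ubiquitin receptor of the 19S cap, went from 194, 190.0 and 221 CPM under DMSO to 494, 484 and 465 CPM under bortezomib in control cells and from 367, 355 and 349.7 CPM to 474, 464 and 433 CPM in Lo19S cells. Its Lo19S libraries lay above the control libraries under DMSO and overlapped them under bortezomib, with a difference of -0.9 ± 0.06 (SE; adjusted p = 5.7e-15). PSMD3, whose promoter element is shown above, went from 192, 206 and 213 CPM under DMSO to 558, 554 and 582 CPM under bortezomib in control cells and from 363, 351 and 339.9 CPM to 608, 595 and 603 CPM in Lo19S cells. Here the Lo19S libraries stayed above the control libraries at both ends, and the difference was -0.69 ± 0.052 (SE; adjusted p = 4.8e-15). PSMD14, the deubiquitinase of the cap, differed by -0.68 ± 0.054 (SE; adjusted p = 3.9e-14), and the core subunits PSMB7 and PSMA7 by -0.61 (adjusted p = 6.9e-14) and -0.6 (adjusted p = 6.8e-14). PSMD5 (0.13 (adjusted p = 0.161)) and PSMD7 (-0.08 (adjusted p = 0.348)), both listed with the cap, and PSMC1 (-0.61 (adjusted p = 0.0807)), an ATPase, did not pass.

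The genes around the proteasome did not move as 1 group. Of 19 genes for assembly chaperones, activators and the processing of NRF1, 5 were called higher and 5 lower, with a median of 0.03, and with library totals 9 were higher and 3 lower. The small MAF genes, which encode dimer partners of NRF1 and NRF2, were on the lower side: MAFG differed by -1.06 ± 0.077 (SE; adjusted p = 1.2e-15) and MAFK by -0.58 ± 0.075 (SE; adjusted p = 3e-08). The assembly factor POMP was also lower at -0.38 (adjusted p = 9.1e-07), and NFE2L1 itself was higher at 0.18 (adjusted p = 0.00374). The assembly chaperone PSMG4 was higher at 0.43 (adjusted p = 0.0167). That call was lost with DESeq2 (0.41, adjusted p = 0.0604), without control bortezomib replicate 2 (0.34) and without Lo19S bortezomib replicate 3 (0.4).

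Genes for ubiquitin, the unfoldase p97 and shuttle factors were lower in the difference in 17 of 22 cases, with none higher and a median of -0.37. Their median response was 1.55 in control and 0.78 in Lo19S cells. Of the 22 genes, 13 were higher and 2 lower in Lo19S cells under DMSO, and 3 were higher and 7 lower under bortezomib. NSFL1C, a cofactor of p97 also known as p47, went from 88.8, 90.4 and 89 CPM under DMSO to 262, 267 and 274 CPM under bortezomib in control cells and from 155, 151 and 153 CPM to 262, 264 and 259.8 CPM in Lo19S cells. It had the proteasome pattern, a gap under DMSO and overlapping libraries under bortezomib, with a difference of -0.8 ± 0.056 (SE; adjusted p = 3.7e-16). ZFAND2A, an arsenite- and heat-inducible zinc finger protein linked to the proteasome, went from 18.5, 22.1 and 18 CPM under DMSO to 489, 492 and 486 CPM under bortezomib in control cells and from 21.6, 19.7 and 20.8 CPM to 211, 205 and 202 CPM in Lo19S cells. Its states overlapped under DMSO and were apart under bortezomib, with a difference of -1.34 ± 0.088 (SE; adjusted p = 5.5e-17). UCHL1, a deubiquitinase, was higher in Lo19S cells at both ends (2.25 under DMSO and 1.07 under bortezomib, log2) and differed by -1.18 ± 0.14 (SE; adjusted p = 5e-09). VCP, which encodes p97, differed by -0.45 (adjusted p = 3.3e-11) and SQSTM1, an autophagy receptor, by -0.52 (adjusted p = 3.1e-13).

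Cytosolic heat shock proteins and co-chaperones were mostly lower in Lo19S cells under bortezomib, and fewer were lower under DMSO. Of 32 genes, 27 were called lower for the difference and 1 higher, with a median of -0.43. In control cells 31 rose and in Lo19S cells 30 rose, with median responses of 2.03 and 1.59. Under DMSO 13 were lower and 2 higher in Lo19S cells, and under bortezomib 28 were lower and 1 higher. The 1 member on the higher side was STUB1, a ubiquitin ligase that works with chaperones, at 0.21 (adjusted p = 0.0391). No member was called higher with DESeq2, with the replicate block or in several fits that left out 1 library.

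BAG3, a co-chaperone of HSP70, went from 37.8, 40 and 41.5 CPM under DMSO to 2004, 2014 and 1974 CPM under bortezomib in control cells and from 53.5, 50.4 and 47.8 CPM to 679.7, 647 and 642 CPM in Lo19S cells. The Lo19S libraries were slightly above the control libraries under DMSO and 3.04-fold lower under bortezomib. The rise was 50.3-fold in control and 12.9-fold in Lo19S cells, and the difference was -1.96 ± 0.064 (SE; adjusted p = 2.8e-28). CRYAB, a small heat shock protein, went from 0.453, 0.931 and 0.743 CPM under DMSO to 141, 149 and 133 CPM under bortezomib in control cells and from 0.558, 1.12 and 0.855 CPM to 26.4, 23.4 and 22.8 CPM in Lo19S cells. Its groups overlapped near 1 CPM under DMSO and were apart under bortezomib, and the difference was -2.82 ± 0.42 (SE; adjusted p = 8.2e-07). HSPA6, an HSP70 gene that is silent in most unstressed cells and whose promoter is shown above, went from 0.529, 1.02 and 0.65 CPM under DMSO to 382, 394 and 389.9 CPM under bortezomib in control cells and from 0.478, 0.43 and 1.5 CPM to 76.2, 83.8 and 77.5 CPM in Lo19S cells. The states again overlapped under DMSO only, and the difference was -2.35 ± 0.43 (SE; adjusted p = 3.7e-05).

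HSPA1A, which encodes the major inducible HSP70, went from 49.5, 52.4 and 44.1 CPM under DMSO to 4472, 4686 and 4396 CPM under bortezomib in control cells and from 47.2, 47.4 and 44.7 CPM to 2114, 2150 and 2159 CPM in Lo19S cells. The libraries of the states lay together under DMSO, and the Lo19S level was 2.11-fold lower under bortezomib, with a difference of -1.01 ± 0.064 (SE; adjusted p = 1.5e-17). HSPA1B gave -1.1 ± 0.069 (SE; adjusted p = 1.4e-16). HSPA1A and HSPA1B are near-identical copies, and how reads were divided between them is uncertain. The rise was still 46-fold for HSPA1A in Lo19S cells, so the induction was reduced and not lost. HSF1, the heat shock transcription factor, differed by -0.24 (adjusted p = 0.0128).

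**Figure D4:**
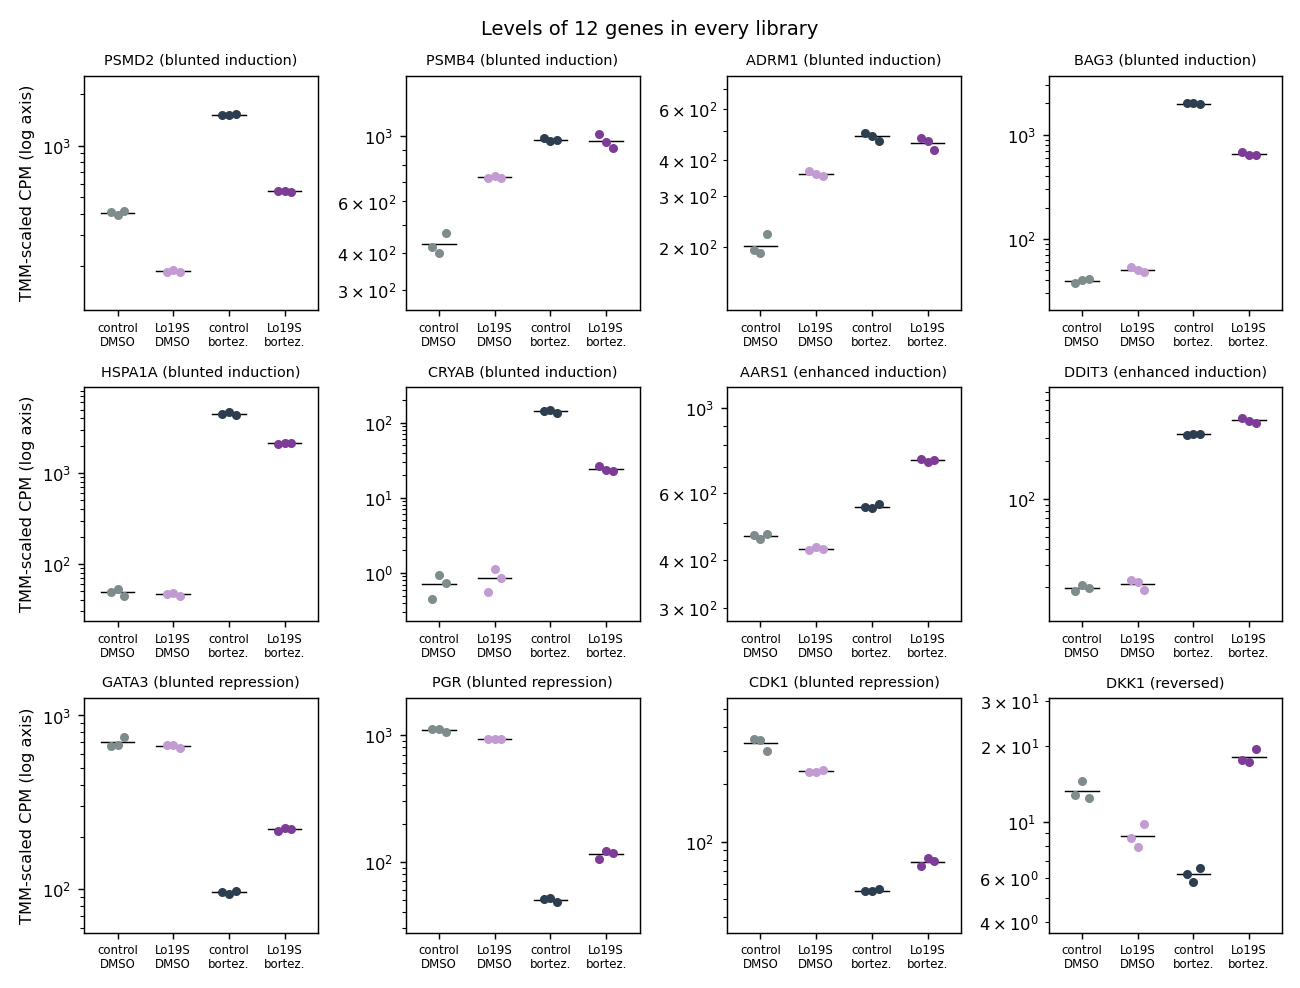
TMM-scaled CPM (log axis) of 12 genes in each of the 12 libraries, with 1 point per library and a bar at the mean of the 3 libraries. PSMB4 and ADRM1 started apart and ended together, BAG3, HSPA1A and CRYAB started close and ended apart, and DKK1 moved in opposite directions in the 2 states.

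The genes of ATF4 and the integrated stress response went mostly the other way. Of 26 genes, 14 were called higher for the difference and 3 lower, with a median of 0.25. All 26 rose in Lo19S cells, whereas 22 rose and 3 fell in control cells. Under DMSO 9 of the 26 were lower and 1 higher in Lo19S cells. Under bortezomib 9 were higher and 6 lower. The median gap went from -0.15 to 0.07, so the difference held a lower start as well as the end levels. Cytosolic tRNA synthetases, many of which are ATF4 targets, were higher in 10 of 18 cases and lower in 1, with a median of 0.17. Under bortezomib 13 of the 18 were higher in Lo19S than in control cells and 1 was lower. The 1 member on the lower side was HARS1, the histidyl-tRNA synthetase, at -0.32 (adjusted p = 4.7e-06).

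AARS1, the alanyl-tRNA synthetase with the C/EBP-ATF element shown above, went from 466, 456 and 468 CPM under DMSO to 552, 547 and 561 CPM under bortezomib in control cells and from 427, 433 and 428 CPM to 737, 723 and 732 CPM in Lo19S cells. The Lo19S libraries lay below the control libraries under DMSO and above them under bortezomib, and the difference was 0.51 ± 0.046 (SE; adjusted p = 1e-12). GARS1, the glycyl-tRNA synthetase, went from 295, 296 and 301 CPM under DMSO to 705, 683 and 724 CPM under bortezomib in control cells and from 293, 289.5 and 290.0 CPM to 905, 914 and 933 CPM in Lo19S cells. The Lo19S libraries lay just below the control libraries under DMSO, a gap that was not called (log2 -0.03, adjusted p = 0.554), and above them under bortezomib, with a difference of 0.41 ± 0.047 (SE; adjusted p = 1.3e-09). The threonyl-tRNA synthetase TARS1 differed by 0.35 ± 0.058 (SE; adjusted p = 4.5e-06).

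STC2, a secreted glycoprotein induced by ATF4, changed direction: it went from 579.9, 579 and 585 CPM under DMSO to 419, 417 and 425 CPM under bortezomib in control cells and from 431, 427 and 416 CPM to 494, 484 and 513 CPM in Lo19S cells. It fell in all control and rose in all Lo19S libraries relative to the DMSO libraries of the same state. The difference was 0.7 ± 0.047 (SE; adjusted p = 1.6e-16). STC2 is also counted in the list of estrogen receptor targets given below. The glutathione-degrading enzyme CHAC1 (0.68 (adjusted p = 0.0323)), the serine synthesis enzymes PSPH (0.58 (adjusted p = 1.3e-05)) and PSAT1 (0.57 (adjusted p = 2.7e-09)) and the amino acid transporter SLC7A5 (0.57 (adjusted p = 1.8e-08)) were also higher. DDIT3, the pro-apoptotic transcription factor CHOP, went from 18.9, 20.9 and 19.7 CPM under DMSO to 318, 323 and 324 CPM under bortezomib in control cells and from 22.7, 22.1 and 19.1 CPM to 435, 414 and 397 CPM in Lo19S cells. The states overlapped under DMSO and were apart under bortezomib. The difference was 0.25 ± 0.088 (SE; adjusted p = 0.0283), and this call was lost with DESeq2 (adjusted p = 0.0613). It was also lost without replicate 2 of the control DMSO group, replicate 3 of the Lo19S DMSO group or replicate 1 of the Lo19S bortezomib group, with differences of 0.21, 0.19 and 0.22.

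The 3 members on the lower side included ATF4 itself, which went from 130.4, 130.2 and 148 CPM under DMSO to 348, 334 and 343 CPM under bortezomib in control cells and from 138, 134 and 131 CPM to 303, 280.2 and 279.6 CPM in Lo19S cells. Its difference was -0.23 ± 0.062 (SE; adjusted p = 0.00346), and with library totals it was -0.14 with an adjusted p of 0.0835, so this call rests on the scaling. PPP1R15A, the stress-induced phosphatase subunit GADD34, went from 15.3, 17 and 17.8 CPM under DMSO to 408, 417 and 411 CPM under bortezomib in control cells and from 19.5, 16.3 and 18.4 CPM to 184, 195 and 189 CPM in Lo19S cells. The Lo19S level was 2.18-fold lower under bortezomib, with a difference of -1.25 ± 0.094 (SE; adjusted p = 5.3e-15). The cystine transporter SLC7A11 differed by -0.88 ± 0.081 (SE; adjusted p = 4.7e-12), from a start that was 1.13 higher (log2) and an end that was 0.26 higher in Lo19S cells.

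The unfolded protein response of the endoplasmic reticulum was not moved as a whole. Of 23 genes, 4 were called higher and 7 lower, with a median of -0.07. With library totals 8 were higher and 3 lower, with a median of 0.02, so the balance rests on the scaling. DNAJB9, a chaperone induced through XBP1, differed by -0.58 ± 0.11 (SE; adjusted p = 8.5e-05) and DNAJB11 by -0.37 ± 0.052 (SE; adjusted p = 1.9e-07). HSPA5, the chaperone BiP, was higher at 0.36 (adjusted p = 1.4e-08). XBP1, a transcription factor of this response and an estrogen receptor target, fell in both states and fell less in Lo19S cells, going from 844, 838 and 764 CPM under DMSO to 202, 191 and 195 CPM under bortezomib in control cells and from 738, 732 and 723 CPM to 247, 272 and 264 CPM in Lo19S cells. Its difference was 0.57 ± 0.055 (SE; adjusted p = 1.4e-11).

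Among NRF2 targets, 12 of 23 were called lower for the difference and 1 higher, with a median of -0.36. Under DMSO 14 of them were higher in Lo19S cells and none lower, and under bortezomib 6 were higher and 8 lower. FTL, the ferritin light chain, went from 57.5, 60.2 and 56.3 CPM under DMSO to 1153, 1172 and 1125 CPM under bortezomib in control cells and from 96.1, 102 and 99.5 CPM to 733, 714 and 715 CPM in Lo19S cells. The Lo19S libraries were above the control libraries under DMSO and below them under bortezomib, with a difference of -1.45 ± 0.056 (SE; adjusted p = 1.3e-25). FTL has many near-identical processed copies in the genome, so its level is uncertain. AKR1C1, an aldo-keto reductase with close paralogs, differed by -2.27 ± 0.55 (SE; adjusted p = 0.00124) and OSGIN1, an oxidative stress gene, by -0.91 ± 0.074 (SE; adjusted p = 6.7e-14). HMOX1, heme oxygenase 1, did not pass at -0.03 (adjusted p = 0.91). The 1 gene on the higher side was TKT, transketolase, at 0.16 (adjusted p = 0.0273). No NRF2 target was called higher with DESeq2 or in several fits that left out 1 library.

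Glutathione transferases, peroxidases and metallothioneins had no common direction, with 3 of 22 called higher and 4 lower (4 called in all without control bortezomib replicate 1, and 8 higher and 4 lower with library totals). The counts of 3 and 4 are near the shares over all genes tested, 14.4% higher and 13.4% lower. The 2 largest called differences were in peroxidases. GPX3, the extracellular glutathione peroxidase, went from 46.4, 49.4 and 53.6 CPM under DMSO to 347, 337 and 361 CPM under bortezomib in control cells and from 213, 203 and 206 CPM to 498, 462 and 466 CPM in Lo19S cells. The Lo19S libraries were above the control libraries at both ends, the gap closed from 4.18-fold to 1.36-fold, and the difference was -1.62 ± 0.063 (SE; adjusted p = 1.3e-25). The increments in CPM were close, at 298 in control and 268 in Lo19S cells. GPX2, the epithelial glutathione peroxidase with the antioxidant response element shown above, went from 0.378, 0.279 and 0 CPM under DMSO to 1.83, 1.67 and 1.43 CPM under bortezomib in control cells and from 3.11, 2.24 and 2.89 CPM to 1.67, 1.76 and 2.09 CPM in Lo19S cells. At these low levels the control DMSO libraries lay below all others and the Lo19S DMSO libraries above all others, the bortezomib libraries of the states overlapped, and the difference was -3.31 ± 0.55 (SE; adjusted p = 5.9e-06).

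Most luminal markers and some estrogen receptor targets were called higher for the difference. Of 21 luminal markers, 13 were called higher for the difference and 2 lower, with a median of 0.59. Their median response was -1.99 in control and -1.1 in Lo19S cells, and under bortezomib 14 were higher and 2 lower in Lo19S cells. Of 22 estrogen receptor targets, 10 were called higher and 2 lower, with a median of 0.25. The other 10 were not called. In control cells 21 of these targets fell and in Lo19S cells 19 fell, with median responses of -1.98 and -1.84. Of the 22 targets, 15 were lower and 1 higher in Lo19S cells under DMSO, and 10 were higher and 6 lower under bortezomib. Their median gap went from -0.22 to 0.03, so the difference held a lower start as well as the end levels.

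GATA3, a transcription factor of the luminal lineage, went from 667, 678 and 756 CPM under DMSO to 96.5, 93.5 and 97.9 CPM under bortezomib in control cells and from 672, 673 and 646 CPM to 216, 224 and 221 CPM in Lo19S cells. The states overlapped under DMSO, and under bortezomib the Lo19S level was 2.3-fold higher, with a difference of 1.28 ± 0.059 (SE; adjusted p = 1.4e-22). ELF5, a transcription factor of the luminal progenitor and secretory lineage, went from 86.8, 86.5 and 82.9 CPM under DMSO to 4.52, 5.12 and 3.69 CPM under bortezomib in control cells and from 92.6, 90.5 and 88.1 CPM to 15.7, 18.4 and 17.6 CPM in Lo19S cells. Under DMSO the Lo19S libraries lay just above the control libraries, a gap that was not called, and under bortezomib they were 3.86-fold higher, with a difference of 1.86 ± 0.14 (SE; adjusted p = 7.9e-15). The lineage factor TFAP2C differed by 1.24 ± 0.082 (SE; adjusted p = 7.5e-17). The keratin KRT18 (-0.15 (adjusted p = 0.0119)) and the tight junction gene CLDN4 (-0.24 (adjusted p = 0.00076)) were the 2 luminal members on the lower side. With library totals 1 luminal member was called lower.

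PGR, the progesterone receptor and a classical estrogen receptor target, went from 1111, 1117 and 1054 CPM under DMSO to 50.8, 51.5 and 48.4 CPM under bortezomib in control cells and from 933, 933 and 937 CPM to 105, 121 and 118 CPM in Lo19S cells. The Lo19S libraries were below the control libraries under DMSO and above them under bortezomib, with a difference of 1.42 ± 0.063 (SE; adjusted p = 1.3e-23). GREB1, an estrogen-induced cofactor of the receptor, had the same order, going from 365, 359 and 389 CPM under DMSO to 27.2, 27.8 and 31.6 CPM under bortezomib in control cells and from 309, 317 and 297 CPM to 59.5, 64.8 and 66.7 CPM in Lo19S cells. Its difference was 1.42 ± 0.078 (SE; adjusted p = 7.4e-20). ESR1, the receptor itself, was higher at 0.71 (adjusted p = 1e-09). TFF1, a secreted estrogen-induced peptide, was the opposite case at -2.26 ± 0.82 (SE; adjusted p = 0.0335), with no more than 1.4 CPM in any library, and its call was lost without Lo19S DMSO replicate 1, control bortezomib replicate 1 or 2, or Lo19S bortezomib replicate 1 or 3 (-2.82 to -1.82). With no filter on low counts the call of TFF1 was lost as well (adjusted p = 0.0916).

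Basal and mesenchymal markers were called lower in 4 of 11 cases and higher in 1, with a median of -0.43. KRT6A, a stress- and wound-induced keratin with close paralogs, went from 0.151, 0.186 and 0 CPM under DMSO to 82.5, 88.4 and 74.7 CPM under bortezomib in control cells and from 0.159, 0.172 and 0.107 CPM to 10.8, 12.9 and 10.7 CPM in Lo19S cells. It was at or below 0.186 CPM in all DMSO libraries and 7.28-fold lower in Lo19S than in control cells under bortezomib, with a difference of -3.2 ± 1 (SE; adjusted p = 0.0141). The call was lost without Lo19S DMSO replicate 1 (-3.14) or replicate 2 (-3.09). CD44, a hyaluronan receptor, differed by -0.74 ± 0.054 (SE; adjusted p = 1.3e-15). The summed fibroblast markers rose in both states, and by less in Lo19S cells. They were at 28.8 to 35.6 CPM in control and 35.6 to 36.1 CPM in Lo19S cells under DMSO. With bortezomib they were at 66.3 to 72.3 CPM and 45.2 to 48.4 CPM. PDGFRA was at 0 in both control groups. COL1A2 and PDGFRA were at 0 in Lo19S cells under DMSO, and COL1A2 and DCN in Lo19S cells under bortezomib. The part of the fibroblast markers in the result was not tested.

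The mitotic genes started lower and fell less. Of 28 genes, 23 were called higher for the difference and none lower, with a median of 0.49. All 28 fell in both states, with medians of -1.74 in control and -1.21 in Lo19S cells. Under DMSO all 28 were lower in Lo19S cells, and under bortezomib 9 were higher and 6 lower. CDK1, the mitotic kinase, went from 346, 343 and 298 CPM under DMSO to 55, 54.8 and 56.2 CPM under bortezomib in control cells and from 234, 234 and 239 CPM to 74.5, 82.1 and 79.2 CPM in Lo19S cells. PLK1, a kinase of mitotic entry and exit, went from 156, 156 and 180.5 CPM under DMSO to 14.2, 11.8 and 11.9 CPM under bortezomib in control cells and from 127, 126 and 120.1 CPM to 22.3, 23.6 and 20.6 CPM in Lo19S cells. In both genes the Lo19S libraries were below all control libraries under DMSO and above all of them under bortezomib. The differences were 0.99 ± 0.074 (SE; adjusted p = 6.7e-15) for CDK1 and 1.19 ± 0.12 (SE; adjusted p = 3.1e-11) for PLK1.

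DNA replication genes had calls on both sides. They were also lower in Lo19S cells under DMSO in 32 of 34 cases, but 28 stayed lower and 4 were higher under bortezomib, and 7 were called higher and 4 lower for the difference, with a median of 0.01. These counts are not far from the 14.4% called higher and 13.4% called lower over all genes tested. PRIM1, the catalytic subunit of DNA primase, differed by 0.81 ± 0.11 (SE; adjusted p = 2.6e-07), GINS1, a part of the replicative helicase, by 0.73 ± 0.11 (SE; adjusted p = 6.6e-07) and the polymerase alpha subunit POLA2 by 0.71 ± 0.093 (SE; adjusted p = 4.4e-08). On the lower side CCNE2, cyclin E2, differed by -0.49 (adjusted p = 2.3e-06).

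The cell cycle inhibitor CDKN1A (p21) went from 21.6, 22.9 and 23.7 CPM under DMSO to 231, 245 and 240.0 CPM under bortezomib in control cells and from 22.1, 22.6 and 23.1 CPM to 177, 184 and 178 CPM in Lo19S cells. It rose 10.5-fold in control and 7.96-fold in Lo19S cells, with a difference of -0.4 ± 0.085 (SE; adjusted p = 0.00022). Of 20 p53 targets and cell cycle inhibitors, 3 were called higher and 6 lower, with a median of 0.01, and with library totals 5 were called on each side. Over all genes tested, 14.4% were called higher and 13.4% lower. GADD45A, a stress-induced growth arrest gene, differed by -1.18 ± 0.18 (SE; adjusted p = 1e-06).

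Genes of cell death did not share a direction. Among 18 pro-apoptotic genes 3 were called higher and 4 lower, and among 10 anti-apoptotic genes 3 were higher and 2 lower. The shares over all genes tested were 14.4% higher and 13.4% lower. With library totals 5 pro-apoptotic genes were higher and 3 lower. BMF (1.6 ± 0.55 (SE; adjusted p = 0.0238)) and HRK (1.28 ± 0.42 (SE; adjusted p = 0.0177)), which encode pro-apoptotic BH3-only proteins, were both higher, and both calls were lost with DESeq2 (adjusted p = 0.0523 and 0.0573). That of BMF was also lost without control bortezomib replicate 1 (1.47) or 2 (1.19) or Lo19S bortezomib replicate 3 (1.44), and that of HRK without control DMSO replicate 1 (1.08) or Lo19S DMSO replicate 2 (1.05). BCL2L11, another BH3-only gene, was lower at -0.48 (adjusted p = 0.0051). MCL1, a labile anti-apoptotic protein, differed by -0.43 ± 0.049 (SE; adjusted p = 1.1e-09), whereas BCL2L2 differed by 0.38 ± 0.095 (SE; adjusted p = 0.00176).

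Cytosolic ribosomal protein genes were lower in 39 of 42 cases and higher in none, with a median of -0.28. With library totals 23 of 42 were called lower, at a median of -0.19. In control cells 40 of 42 rose, with a median of 0.4, and in Lo19S cells 22 rose and 4 fell, with a median of 0.1. The states hardly differed under DMSO, with 1 gene called higher, and all 42 were lower in Lo19S cells under bortezomib. RPS19, a small subunit protein, went from 519, 534 and 594 CPM under DMSO to 763, 732 and 749.9 CPM under bortezomib in control cells and from 519, 537 and 532 CPM to 593, 548 and 512 CPM in Lo19S cells, with a difference of -0.39 ± 0.064 (SE; adjusted p = 2.5e-05). RPL37 differed by -0.38 ± 0.062 (SE; adjusted p = 2.6e-05) and RPS2 by -0.45 ± 0.077 (SE; adjusted p = 0.00011). These genes have many near-identical processed copies, so their counts are uncertain.

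The genes of the mitochondrial genome were lower in 10 of 13 cases and higher in none, with a median of -0.2, and with library totals 6 were called. MT-CO1, a subunit of cytochrome c oxidase, went from 4970, 4925 and 5179 CPM under DMSO to 8361, 8500 and 8555 CPM under bortezomib in control cells and from 5718, 5557 and 5560 CPM to 7747, 7237 and 7119 CPM in Lo19S cells. All bortezomib libraries were above all DMSO libraries, and among them the Lo19S libraries were below the control libraries, with a difference of -0.36 ± 0.044 (SE; adjusted p = 6.7e-09). Nuclear genes of oxidative phosphorylation were called higher in 10 of 43 cases and lower in 1, with a median of 0.09. Without control DMSO replicate 3 these counts were 16 and 5, and without control bortezomib replicate 2 there were 7 calls in all.

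Of 35 genes of the tricarboxylic acid cycle, lipoylation and iron-sulfur assembly, 9 were called higher and 4 lower, and without control DMSO replicate 3 the counts were 14 and 6. PDHB, a subunit of pyruvate dehydrogenase, differed by 0.54 ± 0.077 (SE; adjusted p = 2.5e-07). FH, fumarate hydratase, fell in control and rose in Lo19S cells, going from 127, 134 and 123 CPM under DMSO to 108, 105 and 107 CPM under bortezomib in control cells and from 117, 119.6 and 116 CPM to 137, 128 and 126 CPM in Lo19S cells. Its difference was 0.41 ± 0.065 (SE; adjusted p = 2.6e-06). FDX1, a ferredoxin needed for protein lipoylation, did not pass at -0.23 ± 0.13 (SE; adjusted p = 0.184). Fatty acid oxidation genes were higher in 9 of 19 cases and lower in 1, with a median of 0.19. CPT1A, the carnitine palmitoyltransferase of the outer mitochondrial membrane, went from 222, 230.4 and 228 CPM under DMSO to 56.8, 54.8 and 52 CPM under bortezomib in control cells and from 230.0, 241 and 230.4 CPM to 90, 92.2 and 94.8 CPM in Lo19S cells. The states overlapped under DMSO and the Lo19S libraries were higher under bortezomib, with a difference of 0.72 ± 0.066 (SE; adjusted p = 2.3e-12).

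Cholesterol synthesis genes were lower in 10 of 23 cases and higher in 2, with a median of -0.23. The mevalonate pathway enzymes MVD (-0.54 (adjusted p = 6.7e-08)) and HMGCS1 (-0.53 (adjusted p = 1.2e-10)) were lower. TM7SF2, a sterol reductase, fell in both states and was higher at 0.72 ± 0.12 (SE; adjusted p = 1.6e-05).

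**Figure D5:**
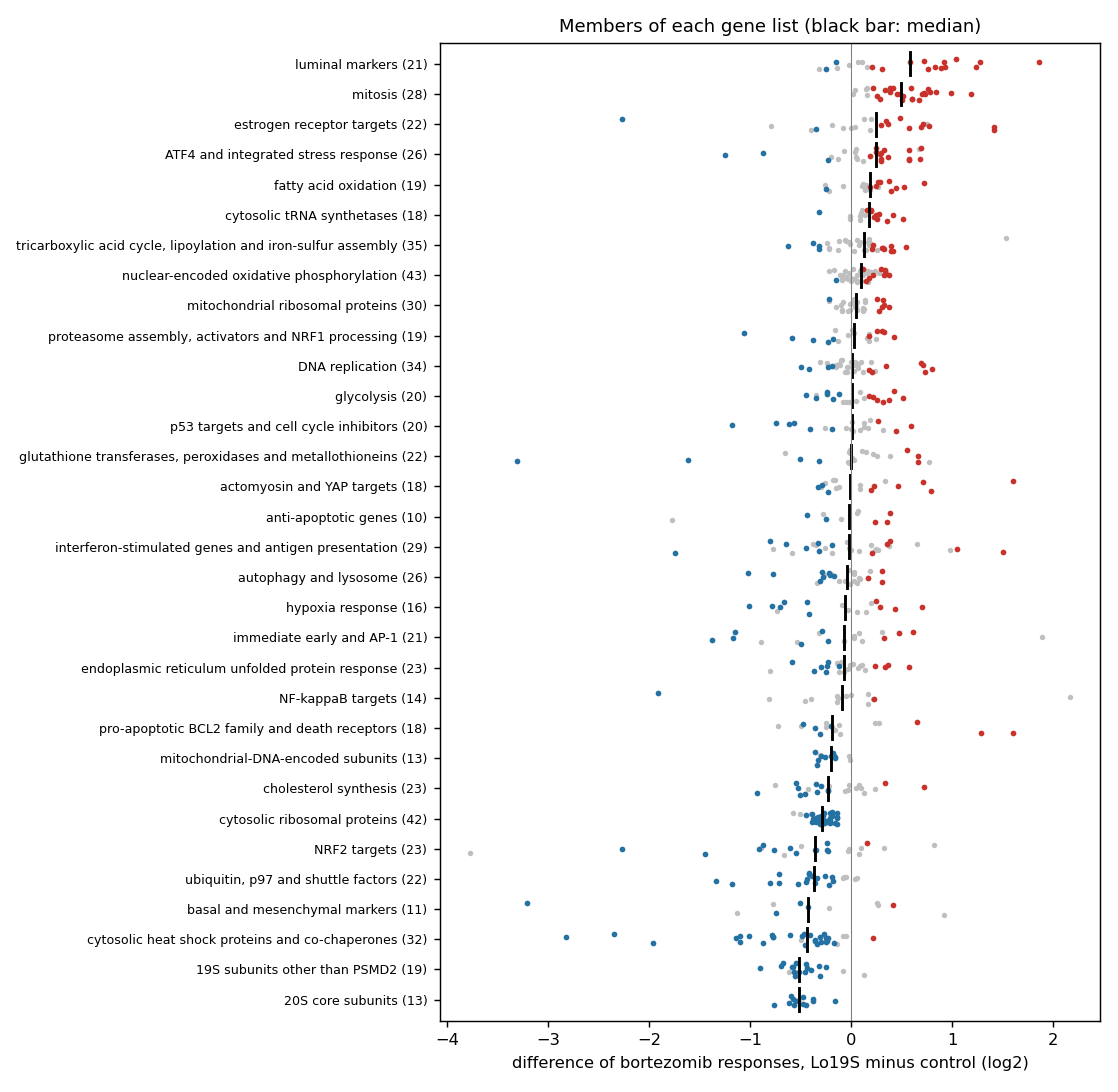
Bortezomib response in Lo19S minus that in control cells (log2) for each tested member of the 32 gene lists, with called members in red (higher) or blue (lower), others in grey, and the list median as a black bar. Luminal and mitotic genes lie to the right, with medians of 0.59 and 0.49, and proteasome subunits to the left, with medians of -0.51.

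Some of the largest differences were in genes outside these lists. In blunted induction, NLRP1, an inflammasome sensor, went from 6.12, 5.59 and 6.32 CPM under DMSO to 98.9, 89.3 and 90.8 CPM under bortezomib in control cells and from 47.6, 43.9 and 51.9 CPM to 121, 128 and 129.5 CPM in Lo19S cells. It was 7.9-fold higher in Lo19S cells under DMSO and 1.36-fold higher under bortezomib, and the difference was -2.54 ± 0.11 (SE; adjusted p = 1.3e-23). The membrane repair protein DYSF had the same course, 7.88-fold higher at the start and 1.29-fold at the end, with a difference of -2.61 ± 0.2 (SE; adjusted p = 9.5e-15). C1orf116, an androgen-regulated gene whose promoter is shown above, went from 0.529, 0.279 and 0.65 CPM under DMSO to 34.8, 31.2 and 34.7 CPM under bortezomib in control cells and from 2.23, 1.29 and 0.855 CPM to 14.3, 13 and 12.4 CPM in Lo19S cells. It was higher in all Lo19S libraries under DMSO and lower in all of them under bortezomib, with a difference of -2.96 ± 0.39 (SE; adjusted p = 5.3e-08). NDRG4 stayed under 4 CPM and differed by -2.88 ± 0.49 (SE; adjusted p = 7.4e-06).

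In blunted repression, SLC40A1, the iron exporter ferroportin, went from 337, 338 and 313 CPM under DMSO to 21, 19.3 and 19.6 CPM under bortezomib in control cells and from 300.4, 303 and 302 CPM to 64.4, 65.7 and 67.4 CPM in Lo19S cells. It fell 16.5-fold in control and 4.57-fold in Lo19S cells, from starts that were close, and the difference was 1.85 ± 0.077 (SE; adjusted p = 1.7e-24). HILPDA, a lipid droplet protein induced by hypoxia, went from 51.6, 44.9 and 50 CPM under DMSO to 4.4, 4.9 and 4.53 CPM under bortezomib in control cells and from 49.8, 51.8 and 49.7 CPM to 16.8, 20.5 and 16 CPM in Lo19S cells. The states overlapped under DMSO and were apart under bortezomib, with a difference of 1.87 ± 0.15 (SE; adjusted p = 9.7e-14). KCNK2, a potassium channel, differed by 2.01 ± 0.17 (SE; adjusted p = 1.4e-13), and BLNK, an adaptor of B cell signalling, by 2.0 ± 0.3 (SE; adjusted p = 6.2e-07). BLNK was higher in the Lo19S libraries at both ends. The amino acid transporter SLC43A1 differed by 1.94 ± 0.5 (SE; adjusted p = 0.00244) at no more than 3.1 CPM.

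The difference was at least 2-fold in 6 of 419 genes of enhanced induction and in 49 of 198 of enhanced repression. OSGIN2, a relative of OSGIN1, went from 74.2, 78 and 68.4 CPM under DMSO to 77.9, 74.7 and 83.2 CPM under bortezomib in control cells and from 75.5, 74.3 and 70 CPM to 134, 140.0 and 146 CPM in Lo19S cells. It was flat in control cells, where its response was 0.1 (adjusted p = 0.115), and rose by 0.94 in Lo19S cells, with a difference of 0.84 ± 0.077 (SE; adjusted p = 2.3e-12). The deubiquitinase USP2 differed by 0.81 ± 0.17 (SE; adjusted p = 0.00017), and INHBE, an inhibin beta subunit induced by stress, by 1.57 ± 0.46 (SE; adjusted p = 0.00724) at no more than 4.8 CPM. IL1RN (1.55 (adjusted p = 0.0409)), the interleukin 1 receptor antagonist, and the zinc finger gene ZNF114 (1.54 (adjusted p = 0.0305)) are less secure. The call of IL1RN was lost without replicate 1 of any group, replicate 3 of Lo19S DMSO or replicate 3 of either bortezomib group (1.26 to 1.62). That of ZNF114 was lost without replicate 3 of control DMSO, replicate 1 or 3 of Lo19S DMSO, control bortezomib replicate 1 or 2, or Lo19S bortezomib replicate 2 (1.28 to 1.52). With no filter on low counts both calls were lost as well (adjusted p = 0.0821 for IL1RN and 0.0509 for ZNF114).

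In enhanced repression the named genes were all low. PLEKHS1 went from 2.72, 3.91 and 2.88 CPM under DMSO to 1.71, 1.67 and 1.31 CPM under bortezomib in control cells and from 4.54, 4.04 and 4.17 CPM to 0.717, 0.439 and 0.361 CPM in Lo19S cells. Its Lo19S libraries were the highest under DMSO and the lowest under bortezomib, with a difference of -2.11 ± 0.45 (SE; adjusted p = 0.00028). TRAF1, a signalling adaptor of the tumour necrosis factor receptors, differed by -1.91 ± 0.48 (SE; adjusted p = 0.00202), and LTBP2, a matrix protein, by -1.71 ± 0.41 (SE; adjusted p = 0.0012). PIP5KL1 differed by -1.89 ± 0.51 (SE; adjusted p = 0.0036). PCDHB11 (-1.8 (adjusted p = 0.0199)), a protocadherin, and GDF9 (-1.7 (adjusted p = 0.0322)), a growth factor, are less secure. The call of PCDHB11 was lost without Lo19S DMSO replicate 2, control bortezomib replicate 3 or Lo19S bortezomib replicate 3 (-1.49 to -1.32). That of GDF9 was lost without replicate 2 of control DMSO, replicate 3 of Lo19S DMSO, control bortezomib replicate 1 or 2, or Lo19S bortezomib replicate 1 or 3 (-1.73 to -1.32). With no filter on low counts the call of GDF9 was lost as well (adjusted p = 0.0783).

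The reversed genes had opposite called responses. DKK1, a secreted inhibitor of Wnt signalling, went from 12.8, 14.5 and 12.4 CPM under DMSO to 6.23, 5.79 and 6.55 CPM under bortezomib in control cells and from 8.61, 7.92 and 9.83 CPM to 17.6, 17.3 and 19.4 CPM in Lo19S cells. It fell 2.14-fold in control and rose 2.1-fold in Lo19S cells, the groups did not overlap, and the difference was 2.16 ± 0.17 (SE; adjusted p = 3.9e-14). LNCAROD, a long non-coding RNA, went from 2.79, 1.96 and 2.42 CPM under DMSO to 1.22, 1.45 and 1.79 CPM under bortezomib in control cells and from 1.83, 2.15 and 2.56 CPM to 5.97, 5.12 and 6.06 CPM in Lo19S cells, with a difference of 2.12 ± 0.34 (SE; adjusted p = 2.5e-06). LYPD6B, a membrane-anchored protein of the LY6 family, went from 12.3, 11.6 and 9.38 CPM under DMSO to 6.11, 7.13 and 7.74 CPM under bortezomib in control cells and from 9.64, 10.1 and 8.87 CPM to 17.3, 18.3 and 16.4 CPM in Lo19S cells, with a difference of 1.52 ± 0.18 (SE; adjusted p = 2.5e-09). In LNCAROD and LYPD6B the states were close under DMSO, and the Lo19S libraries were the highest of all under bortezomib.

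GRHL3, a transcription factor of epithelial differentiation, went from 22.9, 25.8 and 28.1 CPM under DMSO to 10.3, 12.6 and 12.2 CPM under bortezomib in control cells and from 25.8, 28.2 and 21.7 CPM to 32.1, 33.4 and 31.2 CPM in Lo19S cells. PPL, the desmosomal and cornified envelope protein periplakin, went from 100.1, 102 and 102 CPM under DMSO to 43.5, 45.3 and 46.7 CPM under bortezomib in control cells and from 90.8, 91.8 and 99 CPM to 99.6, 107 and 108 CPM in Lo19S cells. GRHL3 fell 2.18-fold and PPL 2.25-fold in control cells, and both ended above their start in Lo19S cells, with differences of 1.46 ± 0.14 (SE; adjusted p = 9.1e-12) for GRHL3 and 1.34 ± 0.076 (SE; adjusted p = 1.8e-19) for PPL. SCARF2, a scavenger receptor family member, was the opposite case, rising in control and falling in Lo19S cells, with a difference of -1.23 ± 0.3 (SE; adjusted p = 0.00135). It went from 3.1, 3.17 and 3.9 CPM under DMSO to 5.62, 4.34 and 4.76 CPM under bortezomib in control cells and from 4.14, 3.01 and 3.1 CPM to 1.91, 1.76 and 2.45 CPM in Lo19S cells. In 50 of the 121 reversed genes the states had no called gap under DMSO and a higher Lo19S level under bortezomib, and in 27 they had none under DMSO and a lower Lo19S level.

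Some of the 80 called genes with under 10 counts in a group are better given as counts summed over 3 libraries. RBBP8NL, a relative of the DNA end resection factor RBBP8, went from 576 to 0 counts in control cells, at least 141-fold lower with a floor of 3 counts over the group, and from 522 to 34 counts in Lo19S cells, 13.3-fold lower. CCL28, a mucosal chemokine, went from 196 to 0 counts in control cells, at least 48.1-fold lower, and from 173 to 16 counts in Lo19S cells, 9.37-fold lower. IL7R, the interleukin 7 receptor, went from 0 to 96 counts in control cells, at least 43.5-fold higher, and from 2 to 19 counts in Lo19S cells. SOSTDC1, a secreted antagonist of bone morphogenetic proteins, went from 39 to 6 counts in control cells, 4.78-fold lower, and from 59 to 0 counts in Lo19S cells, at least 17.1-fold lower. The call of IL7R was lost without any 1 of the DMSO libraries other than Lo19S replicate 3, without control bortezomib replicate 1 or 2, and without Lo19S bortezomib replicate 1 or 3 (adjusted p = 0.0518 to 0.138). With no filter on low counts the call of IL7R was lost as well (adjusted p = 0.0845). That of SOSTDC1 was lost without control bortezomib replicate 2 (fitted log2 difference -0.64), which held all 6 of its counts in that group, or Lo19S bortezomib replicate 3 (-4.94). These folds use library totals with TMM factors, and the bounds cover counting error only.

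Promoter elements were counted as a description, on both strands of 300 bases around the start, with 10642 of 14714 tested genes matched to a RefSeq promoter by symbol. The antioxidant response element was in 20.4% of 1336 promoters of blunted induction, 19.4% of 350 of enhanced induction, 14.2% of 1262 of blunted repression and 9.27% of 151 of enhanced repression, beside 15.3% of the promoters of tested genes. The heat shock element was in 0.898% of blunted induction and 0.31% of tested genes. The C/EBP-ATF element was in 4.29% of enhanced induction, 1.35% of blunted induction and 1.76% of tested genes. The AP-1 element was in 7.63% of blunted induction and 4.48% of tested genes. An endoplasmic reticulum stress element was in 0.374% of blunted induction and 0.132% of tested genes, which is 5 and 14 promoters. Over all 27305 promoters given, the shares were 13.6% for the antioxidant response element, 0.487% for the heat shock element, 3.67% for the C/EBP-ATF element, 7.76% for the AP-1 element and 0.0806% for the endoplasmic reticulum stress element. The AP-1 and antioxidant response letters can overlap, as in C1orf116.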

How the data were processed

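Poly(A)-selected RNA was sequenced with a stranded kit, per the labels' protocols. Per the submitters' processing notes, STAR 2.5.4b, featureCounts 1.6.1 and the GRCh37 build were used. Neither the annotation nor the strand setting is given in the sources used here, and overlapping or antisense genes may share reads. The authors deposited raw whole-number counts for 57773 genes in each of 12 libraries.

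Genes were filtered with edgeR's filterByExpr (14714 tested), scaled with TMM factors and fitted with edgeR 4.0.16 (R 4.3.3) by a robust quasi-likelihood model with 1 coefficient for each of the 4 groups. The difference of responses, the responses and the gaps between states were contrasts of this 1 fit, two-sided, with Benjamini-Hochberg adjustment over all genes tested and a threshold of 0.05. Since these 5 contrasts share libraries, they are set side by side and do not support each other. SE is the log2 difference divided by the square root of F and is approximate. CPM values are TMM-scaled. A called gene was reversed if both responses were called with opposite signs. Otherwise the state with the larger log2 response, and its sign, set the class.

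The genes named were the 6 with the largest difference in each class with at least 10 counts in every group, 4 with fewer counts, up to 3 called members of each of 32 lists, and PSMD2, ATF4, DDIT3, CDKN1A, FDX1, HSPA1A and HSPA1B. Further members, given by a value and an adjusted p, were chosen after their values were seen. Some genes that meet the rule are not reported here. Of 755 list genes, 753 were found and 727 tested. The comparison, lists and naming rule were chosen with earlier results of these data known. The fits were tested on simulated counts. Alternatives were DESeq2 1.42.0, library totals, upper-quartile factors, no filter, at least 10 counts in every library, a replicate block, and leaving out each of the 12 libraries.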

Additional observations from a re-analysis of the deposited data

Results flagged for a closer look

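The bortezomib responses of the 2 states differed, by the test of the difference itself, for 4094 genes, and 121 of these had called responses of opposite sign. The 6 named reversed genes were chosen among genes that passed this test, so their passing is no separate support. The difference of responses (Lo19S minus control, log2) was 2.16 for DKK1, 2.12 for LNCAROD, 1.52 for LYPD6B, 1.46 for GRHL3, 1.34 for PPL and -1.23 for SCARF2.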

How the results depend on the processing

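No named gene reversed its direction. The balance of calls did turn for some lists: with library totals in place of TMM factors, higher calls outnumbered lower ones among unfolded protein response, glutathione, autophagy, pro-apoptotic, immediate early and hypoxia genes, where lower calls had been more. With DESeq2, 48.6% of the called genes were higher, against 51.9%. With library totals, 3331 genes were called higher and 1257 lower, blunted induction held 963 and blunted repression 2810 genes, and the members called were 23 for ribosomal proteins, 12 for glutathione genes, 6 for the mitochondrial genome, 4 for NF-kappaB targets and 19 for nuclear oxidative phosphorylation genes. With DESeq2, 3213 genes were called, 3205 of them shared with the 4094 of the edgeR test; 259 were at least 2-fold, enhanced repression held 116 and reversed 74 genes, and 3 glutathione, 4 mitochondrial ribosomal and 1 NF-kappaB genes were called. With at least 10 counts in every library, 179 genes were at least 2-fold and 1 NF-kappaB gene was called. Without a filter, 7 autophagy genes were called. Leaving out 1 library at a time gave 3408 to 4981 called genes, 322 to 639 in enhanced induction, 128 to 333 in enhanced repression and 82 to 220 reversed. The called members then ranged from 7 to 14 for autophagy, 4 to 9 for glutathione, 4 to 12 for mitochondrial ribosomal, 2 to 4 for NF-kappaB, 7 to 21 for oxidative phosphorylation and 10 to 20 for tricarboxylic acid cycle genes. Most of the highest counts, with those of all called genes and of the 3 classes, came without control DMSO replicate 3, and the lowest counts of those classes without Lo19S bortezomib replicate 3. The cause was not tested.

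The labels give the groups the same replicate numbers. Same-numbered libraries did not deviate together (18 pairs, correlation of deviations -0.072 to 0.026, 3 of 12 libraries closest to their own number), so the numbers were not taken as pairs. With the replicate block, 3889 genes were called, 3859 of them shared.

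Depth limits genes with few counts: a count of 0 allows 0.216 to 0.439 CPM per library, for counting error only.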

Other observations

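Several further gene groups had members on both sides, beside 14.4% of all genes tested called higher and 13.4% lower. Of 29 interferon-stimulated and antigen presentation genes, 5 were called higher and 7 lower for the difference (median -0.03), and with library totals 5 on each side (median 0.07). IFIT2, an interferon-induced RNA-binding protein, differed by -1.74 ± 0.31 (SE; adjusted p = 1.8e-05), and PSMB9, a subunit of the immunoproteasome, by 1.5 ± 0.44 (SE; adjusted p = 0.00756), a call that was lost without control bortezomib replicate 2 (1.24) or Lo19S bortezomib replicate 3 (1.33). Of 16 hypoxia response genes 4 were higher and 6 lower (6 and 5 with library totals), and NDRG1, a stress- and hypoxia-induced gene, differed by -1.01 ± 0.12 (SE; adjusted p = 6.6e-09). The 20 glycolysis genes held 7 higher and 6 lower, with HK1, hexokinase 1, at 0.51 ± 0.056 (SE; adjusted p = 3.8e-10) and LDHA, lactate dehydrogenase A, at 0.42 ± 0.06 (SE; adjusted p = 3.2e-07).

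Of 21 immediate early and AP-1 genes 3 were higher and 6 lower, with a median of -0.07, and with library totals 4 were higher and 3 lower, with a median of 0.03. DUSP1, a phosphatase of stress-activated kinases, differed by -1.15 ± 0.12 (SE; adjusted p = 1.8e-10) and the AP-1 subunit FOSL1 by -1.37 ± 0.37 (SE; adjusted p = 0.0036), whose call was lost without Lo19S DMSO replicate 2 (-1.17). Autophagy and lysosome genes were higher in 3 and lower in 8 of 26 cases (median -0.04; 7 calls in all without Lo19S bortezomib replicate 3), and with library totals in 7 and 4 (median 0.05), with GABARAPL1 at -1.02 ± 0.093 (SE; adjusted p = 1.9e-12) and MAP1LC3B at -0.77 ± 0.066 (SE; adjusted p = 2.5e-13), both of which encode proteins of the autophagosome membrane. Among 18 actomyosin and YAP target genes 6 were higher and 3 lower. CCN2, a classical YAP target, differed by 1.6 ± 0.45 (SE; adjusted p = 0.00543) from a start that was -1.87 (log2) relative to control, a call that was lost without Lo19S bortezomib replicate 1 (1.26). AMOTL2, an inhibitor of YAP, fell in control and rose in Lo19S cells, with a difference of 0.71 ± 0.071 (SE; adjusted p = 4.7e-11). NFKB2 (0.22 (adjusted p = 0.0139)) and TRAF1 were the 2 called members of 14 NF-kappaB targets, and the call of NFKB2 was lost without control DMSO replicate 1 (0.19). Without control DMSO replicate 3, 4 NF-kappaB targets were called. Of 30 mitochondrial ribosomal protein genes 6 were higher and 1 lower, whereas 12 were called without control DMSO replicate 3 and 4 without control bortezomib replicate 3 or Lo19S bortezomib replicate 2.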
